A study of Mus musculus with 6 samples.

Results

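DNA repair and damage checkpoint genes were examined in B16F10 cells, an established line of mouse melanoma cells. The 46 genes were chosen by their symbols from a table of 27179 genes, and all 46 were found once. They fall into 5 pathways, with 24 genes of homologous recombination (HR) and Fanconi repair, 7 of break sensing and the checkpoint, 10 of base excision, 2 of mismatch and 3 of nucleotide excision repair. RNA was sequenced from 3 wild-type cultures treated with 0.01% olive oil (OLO) and 3 treated with 0.01% ozonated olive oil (OZO), each for 6 h in medium with fetal bovine serum. B16F10 is 1 tumour line, and the study describes the cultures of a group as independent experiments.

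The study asked how OZO changed gene expression against OLO. The deposited table gives that contrast only as the authors' own result, and those columns were not used here. The level analysed is the authors' mean over the 6 libraries of both groups, in log2 CPM (CPM, reads of a gene scaled to a common library size). It holds OLO-treated and OZO-treated cells together, so no difference between the treatments is given for any gene. It also carries no spread between cultures. Levels are therefore given without an error or a test, and the order of genes with close levels cannot be read. Since long transcripts yield more reads, genes were compared per kilobase (kb) of their longest coding transcript.

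Homologous recombination copies an intact sister DNA to mend a double-strand break, and the Fanconi pathway prepares crosslinked DNA for it. Base excision repair removes single damaged bases, such as oxidised guanine, through a glycosylase, an endonuclease and a ligase. Mismatch repair corrects copying errors, nucleotide excision repair cuts out bulky damage, and the checkpoint kinases ATM and ATR halt the cell cycle while breaks or stalled forks persist.

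Transcripts of every repair gene were detected. The lowest, Mutyh, averaged 2.12 CPM, which stood for 41.7 reads per library, and the highest, Brca1, averaged 290.1 CPM or 5699 reads. All 46 genes reached 1 CPM, as did 56.2% of the 21154 genes with reads. At 10 CPM or more there were 39 of the 46 genes (84.8%), against 41.5% of genes with reads, and at 100 CPM or more there were 8 (17.4%), against 11.6%. Summed over the 46 genes, the means came to 2602 CPM. Of the 7 melanoma markers examined all had at least 108.5 CPM, with Dct highest at 7052 CPM and Sox10 lowest. Of 15 markers of keratinocytes, fibroblasts, leukocytes and endothelial cells, 5 reached 1 CPM. The highest of these were Cd68 of macrophages, with 5.47 CPM, and Pdgfra of fibroblasts, with 3.28 CPM. Krt5 of keratinocytes had no reads, which voom's added 0.5 reads place at 0.0255 CPM. Ptprc of leukocytes, at 0.0702 CPM, and Kdr of endothelial cells, at 0.0435 CPM, lay near that value.

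Per kb, the median of the 46 genes was 3.30 (log2 CPM per kb), against 0.99 for the 19227 genes with reads and a known length. Of the 46 genes, 44 lay above that median, and Mutyh and Fancf lay below it. Many genes with reads are barely transcribed, however. Among the 11477 genes of at least 1 CPM with a length, the median was 3.43, and 21 of the 46 repair genes lay above it. Repair genes thus sat near the middle of the clearly transcribed genes.

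**Figure D1:**
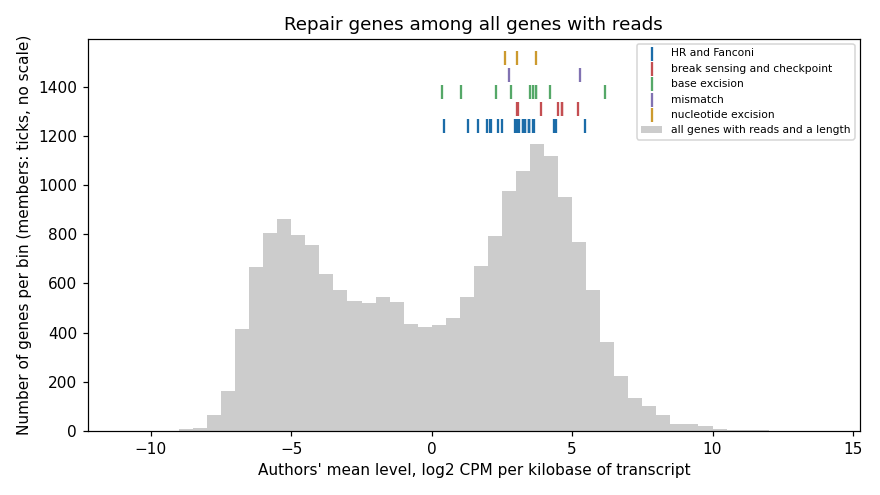
Histogram of the authors' mean level (log2 CPM per kb of transcript, bins of 0.5) over all genes with reads and a length, with the 46 repair genes as ticks above it, 1 row per pathway; the height of the ticks has no scale. The repair genes lie between 0.36 and 6.18, under the right-hand hump of clearly transcribed genes, and none lies in the left-hand hump of genes with few reads.

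The break sensing and checkpoint genes had the highest pathway median, 4.48 (log2 CPM per kb, 7 genes). The 2 mismatch repair genes followed at 4.01, then base excision repair at 3.56, HR and Fanconi repair at 3.24 and nucleotide excision repair at 3.02. Ranges overlapped widely, from 3.03 to 5.20 for the checkpoint genes, from 0.36 to 6.18 for base excision and from 0.42 to 5.46 for HR and Fanconi. With merged exons as the length the order of the 5 medians was the same. Without any length, base excision repair moved below HR and Fanconi repair, since its transcripts are shorter, with a median of 2.03 kb against 3.59 kb. With means in place of medians HR and Fanconi repair came last, below nucleotide excision repair. Below the checkpoint genes, the order also differed in wider lists of repair genes, which are given further down.

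**Figure D2:**
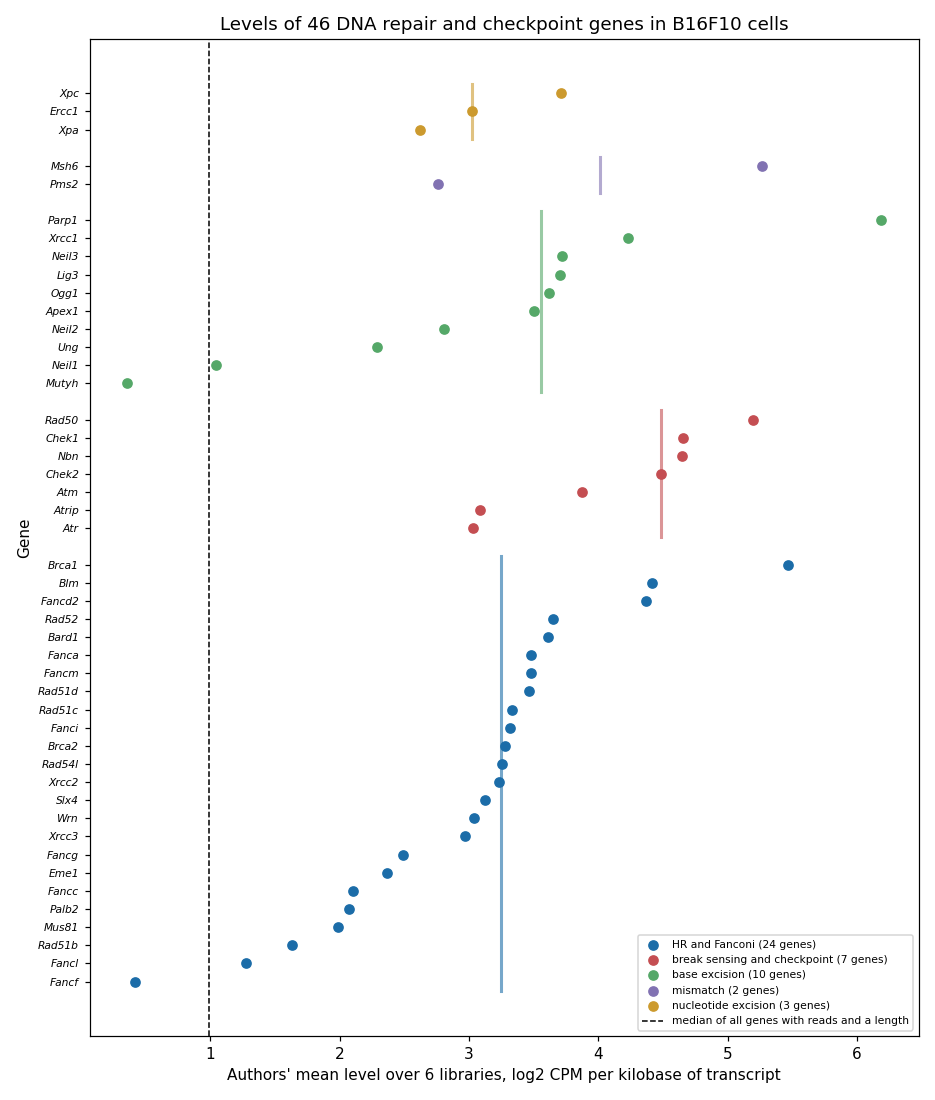
Level of each of the 46 genes (x axis, authors' mean over 6 libraries, log2 CPM per kb of transcript), grouped by pathway, with a vertical bar at each pathway's median and a dashed line at the median of all genes with reads and a length, 0.99. Parp1 at 6.18 is farthest right, and Mutyh at 0.36 and Fancf at 0.42 are the only genes left of the dashed line.

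Among the genes of HR proper, Brca1 stood highest. BRCA1 is the ubiquitin ligase that steers breaks towards resection. The gene lies on chromosome 11 of GRCm38 from 101488764 to 101551955 on the minus strand, with 23 exons in its longest coding transcript of 6.57 kb. Its level was 5.46 (log2 CPM per kb), higher than 91.7% of genes with reads. Bard1, whose product is the obligate partner of BRCA1, had 3.61, so that Brca1 transcripts were 3.60-fold more abundant per kb. With merged exons as the length the ratio was 2.78.

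Brca2, which encodes a mediator of homologous recombination, had 104 CPM from a transcript of 10.7 kb, or 3.28 (log2 CPM per kb). Palb2, which ties BRCA2 to BRCA1, had 2.07 and was the second lowest of the 11 genes of HR proper. Brca2 was 2.31-fold above Palb2 per kb and 3.56-fold with merged exons.

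The products of Rad51b, Rad51c, Rad51d and Xrcc2 form 1 complex of homologous recombination, and those of Rad51c and Xrcc3 form another. Rad51d had 3.47, Rad51c 3.33, Xrcc2 3.23 and Xrcc3 2.97 (log2 CPM per kb). Rad51b stood apart at 1.63 with 6.79 CPM, the lowest of the genes of HR proper. Its level per kb was 0.309 times that of Rad51c, and 0.20 times with merged exons. The gene spans from 79297282 to 79814690 on chromosome 12, although its longest coding transcript measures only 2.19 kb. Rad52, whose product anneals single strands, had 3.65, and Rad54l, the motor that aids strand invasion, had 3.25. Per kb of merged exons they had 1.89 and 1.91, since all annotated exons together measure 5.75 kb and 7.71 kb, against 1.69 kb and 3.02 kb for the longest coding transcript.

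The helicases that dismantle recombination intermediates had 4.41 for Blm and 3.04 for Wrn (log2 CPM per kb). The junction nuclease genes had 3.13 for Slx4, the scaffold, 2.36 for Eme1 and 1.98 for Mus81, the catalytic subunit. Mus81 and Eme1 act as a dimer, and the ratio of their levels was 0.769 per kb and 0.504 with merged exons.

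Among the Fanconi genes, Fancd2, which encodes the protein that is ubiquitinated at crosslinks, had 114.1 CPM and 4.37 (log2 CPM per kb). Fanci, whose product is its clamp partner, had 3.32, or 0.481 times the level of Fancd2. The core complex genes ranged from 3.48 for Fanca and 2.49 for Fancg to 1.28 for Fancl, the ubiquitin ligase subunit, and 0.42 for Fancf. Fancc, with 13.6 CPM, lay between Fancg and Fancl per kb, but below Fancl with merged exons, at 0.70 against 0.97. Fancm, the translocase that anchors the complex, had 3.48. Fancf, a gene of 1 exon on chromosome 7 from 51860577 to 51862267, averaged 2.26 CPM or 44.5 reads per library. The median of the 8 Fanconi genes was 2.90, against 3.28 for the 11 genes of HR proper.

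Of the 7 break sensing and checkpoint genes, 5 lay above the median of genes of at least 1 CPM, 3.43, and Atr and Atrip lay below it. Rad50, the ATPase of the complex that first holds a broken end, had 189.4 CPM and 5.20 (log2 CPM per kb), and Nbn, its partner that recruits ATM, had 4.65. The effector kinases were nearly equal, with 4.65 for Chek1 and 4.48 for Chek2. The apical kinases were lower per kb, with 3.88 for Atm and 3.03 for Atr. Atrip, which encodes the subunit that brings ATR to single-stranded DNA, had 3.09. The ratio of Atr to Atrip was 0.962 per kb and 0.917 with merged exons, in which both levels were lower, at 1.49 and 1.61.

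**Figure D3:**
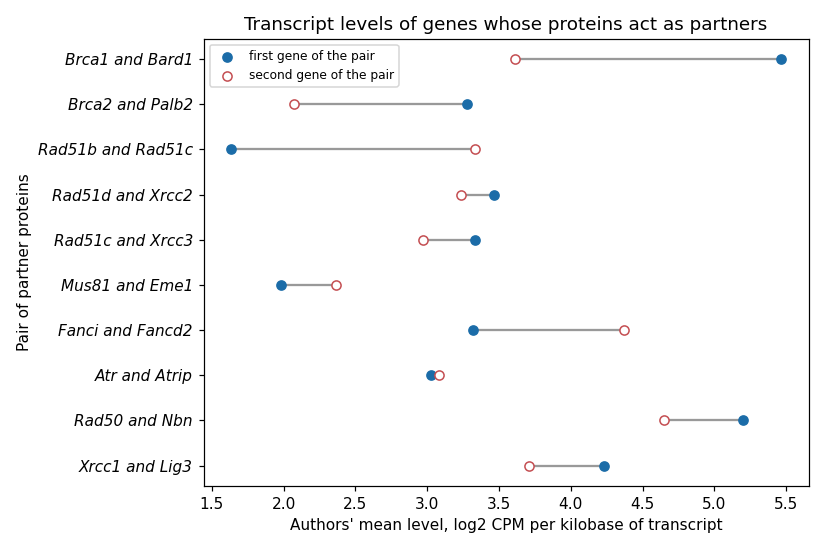
Levels (log2 CPM per kb of transcript) of both genes of 10 pairs whose proteins act together, joined by a line; filled points show the first gene named and open points the second. Atr and Atrip lie 0.06 apart, whereas Brca1 and Bard1 lie 1.85 apart and Rad51b and Rad51c 1.70 apart.

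Among the 10 base excision genes listed, 1 gene supplied most of the reads. Base excision genes outside these 10 also had many reads, such as Lig1 with 119.0 CPM and Tdg with 115.5 CPM. Parp1, which encodes the sensor of single-strand breaks, averaged 281.7 CPM and made up 56.4% of the summed CPM of the 10 genes. It lies on chromosome 1 from 180568924 to 180601254 on the plus strand and had the highest level of all 46 genes per kb, 6.18. The scaffold Xrcc1 had 4.23 and the ligase gene Lig3 3.71 (log2 CPM per kb), but with merged exons Lig3 lay above Xrcc1, with a ratio of Xrcc1 to Lig3 of 0.762.

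The glycosylases each recognise other damaged bases. Ogg1, which removes oxidised guanine, had 3.62 and Mutyh, which removes the adenine mispaired with it, had 0.36 (log2 CPM per kb). Ogg1 was thus 9.55-fold above Mutyh, and 10.7-fold with merged exons. Among the 3 Nei-like glycosylases, Neil3 had 3.72, Neil2 2.81 and Neil1 1.04, and the order was the same with merged exons, at 2.42, 1.43 and 0.90. Ung, which removes uracil, had 2.29.

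Apex1, the main endonuclease at abasic sites, had 275.6 reads per library and a level of 3.50 (log2 CPM per kb) from a transcript of 1.24 kb. Of its exon bases, 61.7% are shared with Pip4p1, a gene on the opposite strand with 27.7 CPM. The library kit keeps strand, but whether strand was used in counting is not given in the sources used here. If it was not, reads of such genes cannot be told apart. The part of this overlap in the level of Apex1 was not tested. Exons of 18 of the 46 genes overlap those of another gene in the table, 17 of them on the opposite strand. Other shares were 25.1% for Lig3 with Rffl and 15.4% for Rad54l with Lrrc41 on the opposite strand. Fanci shares 921 exon bases with Polg, also on the opposite strand, and Atrip 1147 with Trex1 on its own strand. Some neighbours were far more abundant. Eme1, with 12.6 CPM, shares 221 exon bases with Lrrc59, with 310.3 CPM, and Xpa, with 7.65 CPM, shares 77 with Ncbp1, with 159.2 CPM. For Fancf, 15.0% of the exon bases overlap Gas2.

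Msh6, which recognises mismatches, supplied 89.3% of the summed CPM of both mismatch repair genes listed. It had 163.6 CPM and 5.27 (log2 CPM per kb), 5.67-fold above Pms2, the endonuclease gene, at 2.76. With merged exons the ratio was 5.98. In nucleotide excision repair, the damage sensor gene Xpc had 3.71, Ercc1, a subunit of the nuclease that cuts 5′ of the lesion, 3.02 and Xpa, the damage verifier, 2.62. Xpc was 2.12-fold above Xpa, and 2.14-fold with merged exons, while Ercc1 and Xpa changed places, with ratios of 1.32 and 0.888.

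Other repair genes, end joining included, were taken from lists of known members, and all 72 had at least 1 CPM. The wider HR and Fanconi list (17 genes) had a median of 3.45 (log2 CPM per kb), from 1.24 for Fancb to 6.42 for Rpa3, a subunit of the single-strand binding protein. The wider checkpoint list (14 genes) had 4.19, again the highest median, with Tipin highest at 5.98 and Rad1, at 17.5 CPM, lowest per kb. The wider base excision list (13 genes) had 3.69, from -0.93 for Apex2 to 5.23 for Lig1, and the wider mismatch list (3 genes) 3.38, from 1.49 for Mlh3 to 3.96 for Pms1, against 4.01 for Msh6 and Pms2. The wider nucleotide excision list (15 genes) had 3.85, from 0.91 for Ddb2 to 7.18 for Ddb1, against 3.02 for Ercc1, Xpa and Xpc. End joining, which seals breaks without a template, had 3.02 over 10 genes, from 1.65 for Polm to 5.38 for Xrcc5, a subunit of the Ku heterodimer.

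Across the 46 genes, which are not independent replicates, Spearman's rho between transcript length and level was 0.813 before and 0.429 after division by length. Both values share the length itself, and the first is raised by the reads that length alone brings. The longest transcript, that of Brca2, lay near the middle per kb. Of the next longest, that of Atm (9.82 kb) lay above the median of the 46 genes and that of Atr (8.10 kb) below it.

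Several repair genes start back to back with a neighbour. A protein-coding gene on the opposite strand began within 1000 bases upstream of 14 of the 46 genes (30.4%), against 1429 of 17508 coding genes with reads (8.16%). These shares were not compared by a test. The closest pair was Fancd2 with Emc3, 30 bases apart. Brca1 and Nbr1 start 194 bases apart and averaged 290.1 and 288.1 CPM, or 5.46 and 5.91 (log2 CPM per kb). Atm and Npat, 307 bases apart, had 3.88 and 3.84. Xrcc3 and Zfyve21, 297 bases apart, had 2.97 and 2.84. Other pairs lay farther apart in level. Xrcc1 had 4.23 where Pinlyp had -2.98, Rad51c 3.33 where Tex14 had -1.82, and Palb2 2.07 where Dctn5 had 5.60.

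**Figure D4:**
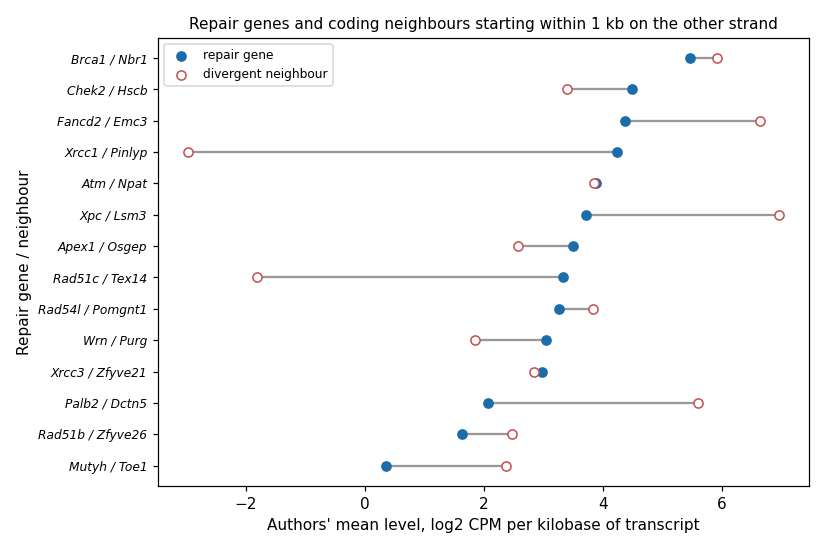
Levels (log2 CPM per kb of transcript) of the 14 repair genes with a coding neighbour that starts within 1000 bases upstream on the opposite strand (filled points) and of that neighbour (open points), joined by a line. The points of Atm and Npat nearly coincide, and those of Xrcc1 and Pinlyp lie farthest apart.

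Promoter windows from 250 bases before to 50 after the start, taken from RefSeq (GRCm38.p6), were matched for 38 of the 46 genes. Nbn, Xpc, Fancd2, Rad50, Wrn, Xrcc2, Neil2 and Rad51d had no entry in the set of windows used. The median window of the 38 genes held 21 CpG dinucleotides, from 3 for Fancl to 37 for Msh6, against 7 over all 32817 windows. Windows of Fancc (65533 bases), Pms2 (23034), Slx4 (2092) and Fancl (949) lay away from the annotated gene start. Without these 4, a step added after the values were seen, the median was 21.5 CpG, from 7 to 37. For the highest gene of HR proper, which shares its start region with Nbr1, the 250 bases before the start at chr11:101551956-101552205 (minus strand) are shown, with the CCAAT box, 86 bases before the start, in capitals:
Brca1: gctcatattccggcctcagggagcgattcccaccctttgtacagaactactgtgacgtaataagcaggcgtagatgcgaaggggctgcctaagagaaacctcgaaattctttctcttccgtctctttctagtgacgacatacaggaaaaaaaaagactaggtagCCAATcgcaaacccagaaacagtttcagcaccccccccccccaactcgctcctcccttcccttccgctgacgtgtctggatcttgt

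Motifs were searched on both strands by their letters. CCAAT was found in 21 of the 38 windows (55.3%) and in 37.4% of all windows. CCGGAAG, the letters of an ETS site, was found in 8 (21.1%) and 8.86%. All windows include those of genes at any level and had fewer CpG, with a median of 7. CCAAT and CCGGAAG were not compared among windows rich in CpG, so these shares cannot be read as a trait of repair genes. The letters of an E2F site, TTTGGCGC, TTTCCCGC, TTTCGCGC or TTTGCCGC, were found in 6 windows (15.8%), all of them among the 34 near the gene start, and in 2.26% of all windows. Of the 8133 windows with at least 21 CpG, 5.21% held them, as did 5 of the 20 such windows of repair genes. E2F factors control genes of the S phase, and a match is a description, not a site.

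The 6 windows were those of Bard1, Brca2, Chek2, Fancg, Msh6 and Rad51c, and those genes had a median level of 3.47 (log2 CPM per kb), against 3.11 for the other 32, with ranges that overlapped (2.49 to 5.27 and 0.36 to 6.18). All 6 matches were TTTCCCGC or its reverse complement GCGGGAAA. They are shown for 5 of the genes, in capitals. The match of Fancg begins 52 bases before the start of its RefSeq window but lies within the annotated gene, so its stretch is not shown. The match of Msh6 begins 15 bases past the start, and the others begin before it. The stretches lie at chr1:71103144-71103211 (minus strand), chr5:150522423-150522490 (plus), chr5:110839801-110839868 (plus), chr17:87975035-87975079 (plus) and chr11:87404925-87404989 (minus):
Bard1: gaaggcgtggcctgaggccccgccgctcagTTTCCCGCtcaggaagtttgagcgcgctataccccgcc
Brca2: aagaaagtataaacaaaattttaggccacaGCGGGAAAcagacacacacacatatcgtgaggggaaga
Chek2: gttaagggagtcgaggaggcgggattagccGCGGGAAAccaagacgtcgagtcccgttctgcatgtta
Msh6: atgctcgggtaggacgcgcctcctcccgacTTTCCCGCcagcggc
Rad51c: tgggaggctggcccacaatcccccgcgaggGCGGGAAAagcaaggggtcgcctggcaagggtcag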

How the data were processed

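Per the methods and the submitters' processing notes, the authors aligned reads of directional libraries to mm10 with HISAT2 (2.1.0), counted them per gene with featureCounts (2.1.1) and compared the groups with limma-voom (3.58.1). A UCSC mm10 annotation is named for the StringTie step (1.3.4d). The annotation, filters and strand use of the counting are not given in the sources used here. The deposited table holds the authors' mean log2 CPM over all 6 libraries, which was used, and the log2 fold changes, moderated statistics, p-values and log-odds of the authors' own comparison, which were not used.

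Genes without reads (6025) share the lowest mean, from which, with the 0.5 reads that voom adds, the geometric mean library size came to 19641945 reads (19.6 reads for each CPM). Depth of single libraries is unknown. Counts were also simulated from these same means, with assumed library sizes and noise and no difference between groups. The levels of 11924 genes of at least 1 CPM were recovered with a median absolute error of 0.063 (log2). That checks the calculation only and does not measure how accurate the levels of these data are. Lengths and positions came from GENCODE M21 (GRCm38, the build of mm10), matched by Ensembl identifier for 23882 genes and all 46 repair genes. The main length was that of the longest protein-coding transcript, and the alternatives were merged exons, no length, a limit of 1 CPM and means in place of medians. Branches of the plan for values of single libraries did not apply.

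All 46 genes were accounted for, and the rule named the highest and lowest of each pathway, while the other members and partners given beside these, and the promoter motifs, were chosen after levels had been seen. Members and lists were chosen with earlier results of these data known. Python 3.11.15, numpy 2.4.6, pandas 2.3.3, scipy 1.17.1 and matplotlib 3.10.9 were used.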

Additional observations from a re-analysis of the deposited data

How the results depend on the processing

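No paired analysis was possible because the level is 1 mean over all libraries. For the same reason another test, another normalization, another pseudocount and leaving out each culture were not run. Each pathway's median was set against all genes with reads and a length. The difference in log2 level per kb was 2.30 for the 46 genes, 2.25 for HR and Fanconi, 3.49 for the checkpoint, 2.56 for base excision, 3.02 for mismatch and 2.03 for nucleotide excision repair. With the comparison limited to genes of at least 1 CPM, a limit added after the values were seen, it was -0.13, -0.18, 1.06, 0.13, 0.59 and -0.41 in that order, so that the 46 genes, HR and Fanconi and nucleotide excision repair lay below. The planned limit to repair genes of at least 1 CPM left the values as they were by construction, since all 46 pass it. Without length the difference was 1.62 for base excision and 1.07 for nucleotide excision repair. With means in place of medians, for the repair genes and for all genes alike, it was 3.03 for the 46 genes and 3.79 for mismatch repair. It was 2.89 for nucleotide excision and 2.77 for HR and Fanconi repair. The mean of 2 genes equals their median, so for mismatch repair only the reference, the level of all genes, changed. The same reference was used for every pathway. Merged exons moved the differences by less than 1.5-fold. Of the 46 genes, 44 lay above the median gene with reads per kb, 44 with merged exons and 43 without length. With merged exons 10 of the 46 genes moved by more than 1 on the log2 scale. Ratios of partner genes without length also carry the ratio of their lengths, and became 3.03 for Atr to Atrip, 6.61 for Brca2 to Palb2 and 6.22 for Xpc to Xpa, against 0.962, 2.31 and 2.12 per kb. Spread between cultures and the difference between treatments cannot be read from these means.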
